A study of Mus musculus with 9 samples.

Results

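Chemokine receptors steer leukocytes along gradients of small secreted proteins, and 9 of them that are linked to entry into tissues are described here: Ccr1, Ccr2, Ccr4, Ccr6, Ccr8, Cxcr3, Cxcr4, Cxcr6 and Cx3cr1. They were taken by gene name from a table of 49510 genes, and each name matched 1 row. All 9 members passed the filter on low counts, which left 16609 genes. RNA was sequenced from cells labelled as regulatory T cells (Tregs), double-sorted, by magnetic and then fluorescence-activated sorting, from 8-week-old mice of the Foxp3-GFP strain, in which green fluorescence reports Foxp3, the transcription factor of the Treg lineage. The organs were spleen, injured heart and its draining node, the mediastinal lymph node (MLN), with 3 libraries for each. Every group was taken 3 days after ischemia/reperfusion injury, in which blood flow to the heart is stopped and restored, so no uninjured state enters any comparison. The comparisons ask how Tregs in the injured heart differ from those of the lymphoid organs. Whether the 3 libraries of 1 organ stem from different animals, or from pools, is not stated in the labels. The p-values therefore reflect spread among these samples alone, some of which may be technical.

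Chemokine receptors are multi-pass membrane proteins that signal through inhibitory G proteins, after which the receptor is phosphorylated by G-protein-coupled receptor kinases and bound by arrestins. Inflammatory chemokines such as Ccl2 and Ccl7 recruit cells that carry Ccr2, while homeostatic signals such as those read by Ccr7 keep T cells in lymphoid organs. In Tregs, Ccr4, Ccr6, Ccr8, Cxcr3 and Cxcr6 are known as receptors of activated cells that enter skin, gut or inflamed tissue. In the heart after injury, Ccr2 and Cx3cr1 are best known on monocytes and macrophages.

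Library totals ranged from 156194012 to 267520538 counts, and 14562 to 18570 genes had at least 1 count. A count of 0 allows up to 3 counts, which is between 0.0103 and 0.0192 CPM, for counting error only; reads amplified by PCR are not independent molecules. CPM, the unit of level used for each gene across libraries, divides a count by its library's total after scaling by trimmed mean of M-values (TMM). The sorted cell type was checked against marker lists. Genes of the Treg list took 0.304 to 0.534% of counts in spleen, 0.329 to 0.444% in MLN and 0.0896 to 0.183% in heart. Foxp3 was 31.1, 32.6 and 187 CPM in spleen libraries 1, 2 and 3, 42.3, 41.7 and 46.2 CPM in MLN, and 8.74, 37.9 and 0.239 CPM in heart, so heart library 3 was almost without it. Genes of the pan-T list took 0.680 to 0.846% of counts in spleen, 0.808 to 0.905% in MLN and 0.261 to 0.456% in heart. Spleen 3, MLN 3 and heart 2 had scaling factors (1.24, 1.17 and 1.11) above those of the other 6 libraries.

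Markers of several other cell types took a larger share of counts in heart libraries, as the map of marker shares by library shows. All 16 macrophage and monocyte genes had counts in each organ, and together they took 0.118 to 0.345% of counts in spleen, 0.0344 to 0.0861% in MLN and 0.804 to 1.10% in heart. Heart libraries lay above every spleen library for 14 of the 16 genes (12.4% of all genes tested) and above every MLN library for 16 of 16 (14.9% of all genes). By the test used for the receptors, 2 of the 16 were called higher than in spleen (0.614% of all genes) and 6 higher than in MLN (1.1% of all genes). B cell genes took 0.00463 to 0.0138% in heart and 0.0871 to 0.541% in the lymphoid libraries. Fibroblast genes took 0.308 to 1.60% of counts in heart and at most 0.00191% in the lymphoid libraries. Mast cell genes took 0.621% of counts in heart 1 and 0.598% in heart 2, but 0.00412% in heart 3. Because each library is a bulk sample, fewer cells of a type and less RNA per cell cannot be told apart. The part that these other cells play in the receptor levels below was not tested.

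**Figure D1:**
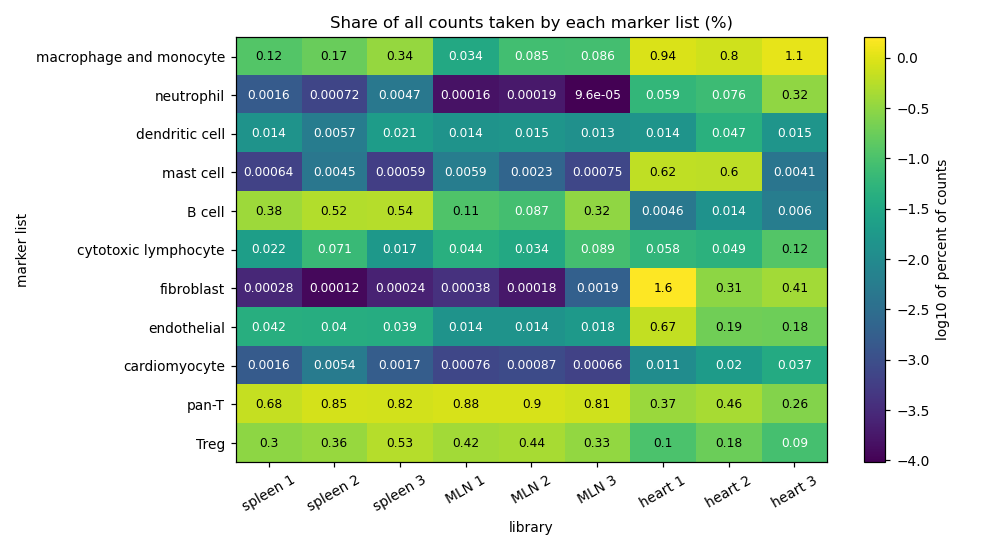
Map of the percent of all counts taken by each of 11 marker lists (rows) in each of the 9 libraries (columns), with colour on a log10 scale and the percent printed in each cell. Macrophage and monocyte genes take 0.804 to 1.10% in heart libraries and at most 0.345% in the others, while Treg genes take at most 0.183% in heart.

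A gene was called changed at an adjusted p below 0.05 in edgeR's quasi-likelihood test. In heart against spleen, 1 of 9 receptors, Ccr2, was called higher and 0 lower, where 0.614% of the 16609 genes were called higher, 0.175% lower and 0.789% in either direction. Ccr1, Ccr2 and Cxcr6, 3 of 9, had heart libraries above every spleen library, against 12.4% of all genes. None lay below (6.9% of genes), and 19.3% of genes did not overlap in either direction.
In heart against MLN, 1 of 9, Ccr2 again, was called higher, with 1.1% of genes called higher, 0.283% lower and 1.38% either way. Ccr1, Ccr2 and Cx3cr1 had heart libraries above every MLN library (14.9% of genes), and Ccr6 had them below (11.2% of genes), with 26.2% of genes apart in either direction. Across the 9, the median log2 fold change was 1.46 in heart against spleen, beside 0.02 over all genes. In heart against MLN it was 0.30, beside 0.12. In MLN against spleen, edgeR called 0 of the 9 receptors and 0% of genes. At an unadjusted p under 0.05 it called 0 of 9 and 955 genes (5.75%), and at an adjusted p below 0.05 DESeq2 called 785 genes and limma-voom 3, none of them a receptor of the 9. For 0 of 9 were MLN and spleen libraries apart, against 4.52% of genes higher in MLN, 4.56% lower and 9.08% either way. The median log2 fold change of the 9 was 0.38, beside 0 over all genes. The heart comparisons share the same heart libraries, so their values are not independent. Ccr2 was called in 6 of 18 alternative settings against spleen and in 10 of 18 against MLN.

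Ccr2, the receptor for the monocyte chemoattractants Ccl2, Ccl7 and Ccl12, was higher in heart than in either lymphoid organ. It measured 12.2, 19.8 and 15.4 CPM in spleen, 9.77, 16.8 and 16.5 CPM in MLN, and 126, 109 and 73.2 CPM in heart. Every heart library lay above every lymphoid library, and the lymphoid libraries overlapped each other. Ccr2 was 6.49-fold higher in heart than in spleen (log2 fold change 2.70, SE 0.44, edgeR adjusted p = 0.0398). It was 7.15-fold higher in heart than in MLN (log2 fold change 2.84, SE 0.44, edgeR adjusted p = 0.0308). For MLN against spleen the log2 fold change was -0.14 (SE 0.41, edgeR adjusted p = 1). The call depends on the libraries: without 1 library at a time, the adjusted p in heart against spleen was 0.0532 to 0.131, and 0 of 9 such fits kept the call. In heart against MLN it was 0.0375 to 0.112 and 3 of 9 kept it. Without heart 3, the library with almost no Foxp3, its log2 fold change was 2.89 against spleen and 3.03 against MLN, with adjusted p of 0.112 and 0.0784. Without spleen 3, MLN 3 and heart 2, the values were 2.64 and 2.92 (adjusted p = 0.161 and 0.138).

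Ccr2 (ENSMUSG00000049103) lies on chromosome 9 at chr9:124101950-124113557, plus strand, of GRCm38, the assembly that mm10 names. Of the stretches of 50 bases in Ccr2 exons, 1.91% also occur in other genes, where reads cannot be assigned by sequence alone, and 0 were found for Ccr1, Ccr6, Ccr8, Cxcr3, Cxcr4 and Cxcr6.

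Ccr1 (ENSMUSG00000025804, chr9:123962124-123968692, minus strand), a receptor for Ccl3, Ccl5 and Ccl7 and a neighbour of Ccr2 on chromosome 9, had the largest fold change of the 9 in both heart comparisons, with a large error. It measured 0, 2.06 and 7.04 CPM in spleen, 5.23, 2.11 and 4.55 CPM in MLN, and 137, 87.0 and 116 CPM in heart. The heart libraries did not overlap any lymphoid library. In spleen 1 no count was seen, which allows up to 0.0192 CPM. Its fold change on the log2 scale was 5.22 (SE 1.79, edgeR adjusted p = 0.221) against spleen and 4.84 (SE 1.76, edgeR adjusted p = 0.228) against MLN. Against spleen it was 6.78 without spleen 3 and 4.64 without spleen 1. DESeq2 and limma-voom called Ccr1 higher in heart, with adjusted p of 0.00800 and 0.0411 against spleen and 0.0139 and 0.0233 against MLN.

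Cx3cr1 (ENSMUSG00000052336, chr9:119901616-120069879, minus strand), the receptor of fractalkine (Cx3cl1), was spread widely within organs. It measured 2.31, 0.768 and 42.5 CPM in spleen, 1.93, 3.13 and 7.83 CPM in MLN, and 44.4, 180 and 33.5 CPM in heart. Spleen 3, at 42.5 CPM, lay above heart 3, so heart and spleen overlapped, while heart and MLN did not. Its log2 fold change was 4.32 against MLN (SE 1.54, edgeR adjusted p = 0.219) and 2.50 against spleen (SE 1.42, edgeR adjusted p = 0.542). Against spleen it was 5.80 without spleen 3 and 1.35 without heart 2, and against MLN it was 3.18 without heart 2. Spleen 3 was also the lymphoid library with the highest macrophage and monocyte share, 0.345%. Among heart libraries the order was the reverse: heart 2, highest in Cx3cr1, had the lowest share, 0.804%. Heart 3, lowest in Cx3cr1, had the highest share, 1.10%. A link between this share and Cx3cr1 was not tested. DESeq2 called the heart against MLN difference (adjusted p = 0.0105). The model of Cx3cr1 shares 78 exon bases (1.73%) with the antisense gene Gm33858, and without the authors' strand setting such reads cannot be told apart.

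**Figure D2:**
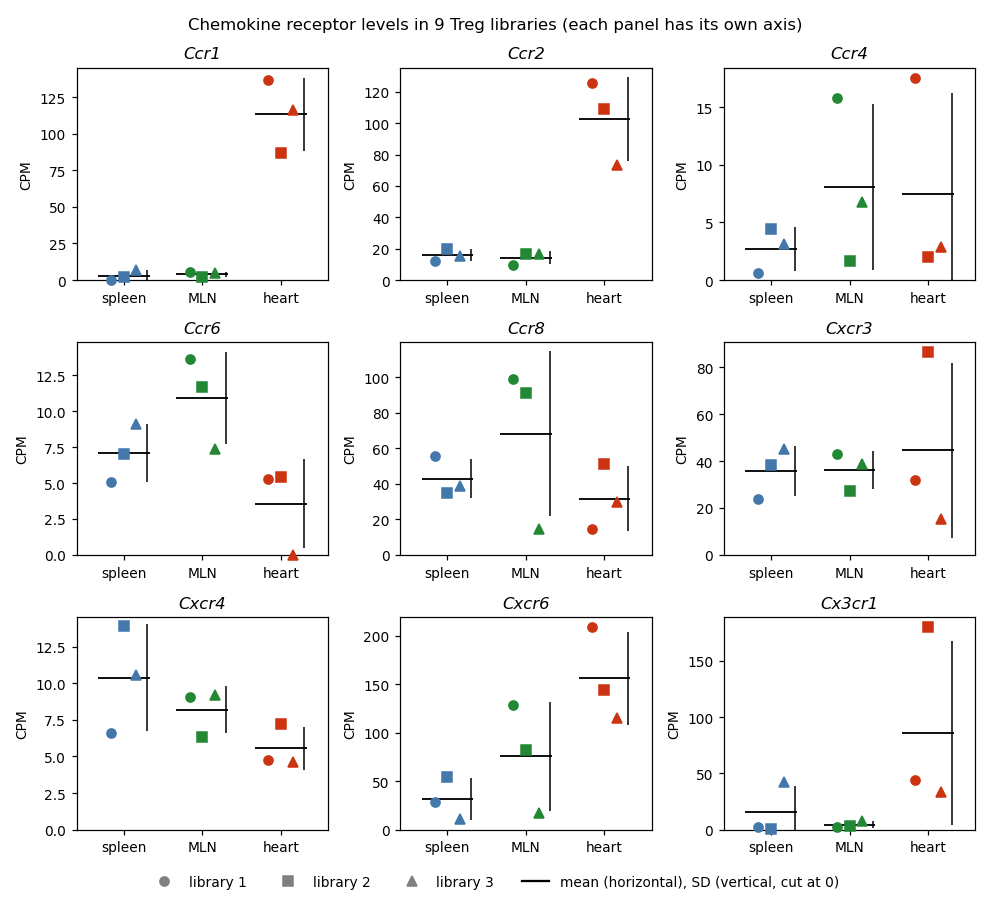
CPM of each of the 9 receptors (1 panel each, with its own axis) in the 9 libraries. Points are libraries 1, 2 and 3 of spleen, MLN and heart, horizontal lines are means and vertical lines are SD cut at 0, with n = 3 per organ. Heart libraries lie above every lymphoid library for Ccr1 and Ccr2.

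Cxcr6 (ENSMUSG00000048521), the receptor of Cxcl16 and a marker of tissue-resident T cells, was the most abundant of the 9 in heart. It measured 28.9, 54.3 and 11.3 CPM in spleen, 128, 81.7 and 16.6 CPM in MLN, and 209, 144 and 116 CPM in heart. All 3 heart libraries lay above the spleen libraries, but MLN 1, at 128 CPM, lay above heart 3. The log2 fold change was 2.31 against spleen (SE 0.80, edgeR adjusted p = 0.227) and 1.05 against MLN (SE 0.77, edgeR adjusted p = 0.635). Without 1 library at a time it ranged from 1.91 (without spleen 3) to 2.98 (without spleen 2) against spleen, and from 0.57 (without MLN 3) to 1.66 (without MLN 1) against MLN. DESeq2 called it against spleen (adjusted p = 0.0424). Cxcr6 lies inside Fyco1 on the opposite strand (chr9:123806475-123811760, plus strand) and shares no exon base with it.

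Cxcr3 (ENSMUSG00000050232, chrX:101731535-101734269, minus strand), the receptor of the interferon-induced chemokines Cxcl9 and Cxcl10, had means of 35.8, 36.4 and 44.7 CPM in spleen, MLN and heart. It measured 23.9, 38.4 and 45.0 CPM in spleen, 42.9, 27.3 and 38.9 CPM in MLN, and 31.9, 86.7 and 15.4 CPM in heart. The heart held both the highest and the lowest library. Against spleen the log2 fold change was 0.32 (SE 0.63, edgeR adjusted p = 0.963), and it was 0.30 (SE 0.63, edgeR adjusted p = 0.918) against MLN. Without heart 2 the sign turned in both comparisons, to -0.60 and -0.62.

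Ccr8 (ENSMUSG00000042262, chr9:120092114-120094906, plus strand), the receptor of Ccl1 and a receptor of activated tissue Tregs, had the highest length-scaled level in both lymphoid organs. It measured 55.8, 34.6 and 38.7 CPM in spleen, 98.9, 91.1 and 14.7 CPM in MLN, and 14.3, 51.0 and 29.8 CPM in heart. MLN 3 was far below the other MLN libraries, and the organs overlapped. Heart differed from spleen by -0.44 on the log2 scale (SE 0.72, edgeR adjusted p = 0.948) and from MLN by -1.11 (SE 0.73, edgeR adjusted p = 0.574). Without 1 library at a time these values ranged from -0.96 (without heart 2) to -0.09 (without heart 1) and from -1.63 (without heart 2) to -0.74 (without MLN 1). With libraries scaled by the Cd3 genes the sign turned, to 0.32 and 0.03, when the median over all genes was moved by 0.65 and 0.97.

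Ccr4 (ENSMUSG00000047898, chr9:114490316-114504916, minus strand), a receptor of the chemokines Ccl17 and Ccl22, was low in every organ. It measured 0.603, 4.40 and 3.14 CPM in spleen, 15.8, 1.64 and 6.76 CPM in MLN, and 17.5, 2.00 and 2.90 CPM in heart. The heart mean rests on library 1, and leaving that library out turned the log2 fold change against spleen from 1.46 (SE 1.27, edgeR adjusted p = 0.803) to -0.15. Against MLN it was -0.11 (SE 1.24, edgeR adjusted p = 0.989).

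Ccr6 (ENSMUSG00000040899, chr17:8236043-8257141, plus strand), the receptor of Ccl20 and a receptor of T cells of mucosal tissue, measured 5.10, 7.00 and 9.13 CPM in spleen, 13.7, 11.7 and 7.41 CPM in MLN, and 5.27, 5.44 and 0 CPM in heart. Every heart library lay below every MLN library. The 0 in heart 3 allows up to 0.0135 CPM. The log2 fold change was -1.61 against MLN (SE 1.74, edgeR adjusted p = 0.799) and -0.99 against spleen (SE 1.72, edgeR adjusted p = 0.955). Without heart 3 these were -1.03 and -0.40.

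Cxcr4 (ENSMUSG00000045382, chr1:128588199-128592293, minus strand), the receptor of Cxcl12 that holds cells in bone marrow and other niches, measured 6.62, 13.9 and 10.6 CPM in spleen, 9.07, 6.34 and 9.21 CPM in MLN, and 4.77, 7.25 and 4.64 CPM in heart. The organs overlapped. The log2 fold change was -0.90 against spleen (SE 0.67, edgeR adjusted p = 0.722) and -0.56 against MLN (SE 0.66, edgeR adjusted p = 0.822). With Cd3 scaling the value against MLN was 0.43, when the median over all genes was moved by 0.97.

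**Figure D3:**
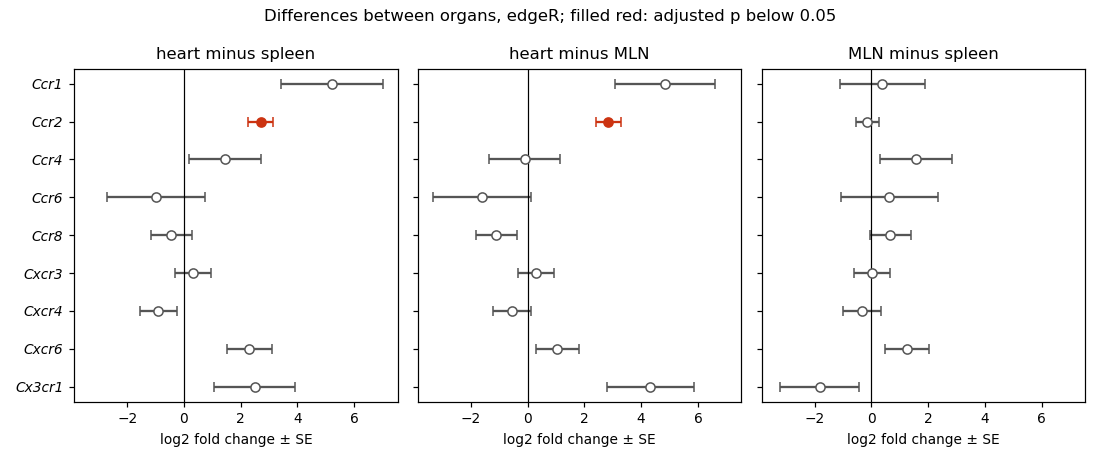
Log2 fold change with SE from edgeR (x axis) for the 9 receptors (rows) in heart minus spleen, heart minus MLN and MLN minus spleen. Filled red points have an adjusted p below 0.05, which holds for Ccr2 in both heart comparisons.

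Levels of different receptors were compared in TPM, which divides reads by gene length before scaling to the library. Length here is that of all annotated exons of a gene, merged over its transcripts, from 1175 bases for Ccr8 to 6760 for Ccr2. The order depends on this length: by mean CPM, Cxcr6 (75.5) lay above Ccr8 (68.3) in MLN. Ccr8 led by mean CPM too in spleen (43.0). In spleen the order of mean TPM was Ccr8 (80.8), Cxcr3 (48.7), Cxcr6 (32.95), Cxcr4 (13.0), Cx3cr1 (9.89), Ccr6 (7.21), Ccr2 (5.26), Ccr1 (2.96) and Ccr4 (2.04). For 7 of 8 neighbours in that order the libraries overlapped, the exception being Cxcr6 above Cxcr4. In MLN it was Ccr8 (114), Cxcr6 (76.3), Cxcr3 (44.4), Cxcr4 (9.63), Ccr6 (9.62), Ccr4 (5.31), Ccr2 (4.55), Ccr1 (2.96) and Cx3cr1 (2.16), and 7 of 8 neighbours overlapped, with Cxcr3 above Cxcr4 apart. In heart it was Cxcr6 (144), Ccr1 (69.0), Cxcr3 (57.2), Ccr8 (56.5), Cx3cr1 (43.6), Ccr2 (28.0), Cxcr4 (6.01), Ccr4 (3.59) and Ccr6 (3.11). There 6 of 8 neighbours overlapped, and Cxcr6 lay above Ccr1, and Ccr2 above Cxcr4, without overlap. Compared within each library, some overlapping neighbours still kept their order in 3 of 3 libraries. In spleen these were Ccr8 above Cxcr3 and Ccr6 above Ccr2. In MLN they were Ccr8 above Cxcr6 and Ccr6 above Ccr4, and in heart Ccr8 above Cx3cr1. The other overlapping neighbours kept it in 1 or 2 of 3. Ccr1 was eighth in both lymphoid organs by mean and second in heart.

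**Figure D4:**
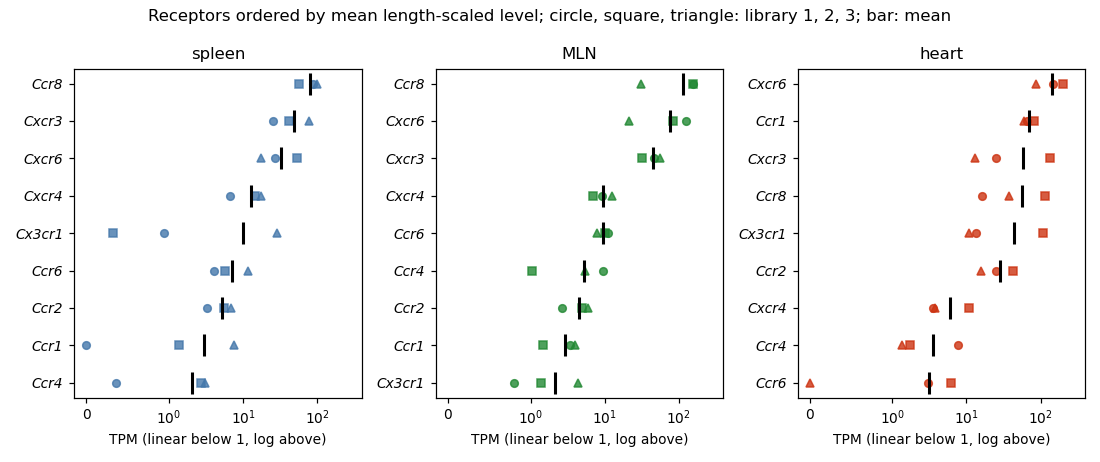
TPM (linear below 1, log above) of the 9 receptors in spleen, MLN and heart, ordered in each panel by the mean (bar), with symbols for libraries 1, 2 and 3. Ccr8 leads in the lymphoid organs and Cxcr6 in heart, and most neighbours overlap.

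The ligands of the 9 receptors were scored as a list of 17 genes, all of them tested. In heart against spleen, 4 of 17 were called higher (Ccl2, Ccl7, Ccl8 and Ccl12) where 0.614% of all genes were, and 11 had heart libraries above every spleen library, against 12.4% of all genes. In heart against MLN, 2 were called higher (Ccl6 and Ccl7), where 1.1% of all genes were, and 10 had heart libraries above every MLN library, against 14.9% of all genes. The list's median log2 fold change was 5.06 in heart against spleen, 2.93 against MLN and 1.77 in MLN against spleen, beside 0.02, 0.12 and 0 over all genes. None was called in MLN against spleen.
Ccl2, a Ccr2 ligand that draws monocytes out of the bone marrow, measured 0.0449, 0.0330 and 0.0483 CPM in spleen, 0.364, 0.216 and 8.14 CPM in MLN, and 1554, 267 and 1174 CPM in heart. Its edgeR adjusted p was 0.0374 against spleen and 0.0531 against MLN. Ccl7, which binds Ccr1 and Ccr2, measured 0.0321, 0 and 0.0172 CPM in spleen, 0.215, 2.22 and 0.0694 CPM in MLN, and 4969, 330 and 880 CPM in heart. Its edgeR adjusted p was 0.0374 against spleen and 0.0472 against MLN. Ccl12, another Ccr2 ligand, was 712, 89.6 and 611 CPM in heart, and at most 0.0385 CPM in spleen (edgeR adjusted p = 0.0398). Ccl8, in mouse a ligand of Ccr8, had no count in spleen and was 367, 32.8 and 590 CPM in heart (edgeR adjusted p = 0.0379). Its heart mean was 22635-fold the mean spleen floor of 3 counts per library, a floor for counting error only. Ccl6 was 881, 587 and 1692 CPM in heart and at most 70.6 CPM in MLN (log2 fold change 5.01, edgeR adjusted p = 0.0479). Ccl5, a ligand of Ccr1 and Ccr3 and the most abundant of the list by mean over all 9 libraries, though below Ccl7 in heart, overlapped between organs, at 265, 1009 and 75.7 CPM in spleen and 2485, 439 and 2053 CPM in heart (edgeR adjusted p = 0.583). The part of macrophage and fibroblast RNA, whose shares are given above, in these ligand levels was not tested.

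Among the other chemokine receptors, 10 of 14 were tested (Ccr10, Cxcr1, Ackr1 and Ackr2 were not) and 0 were called in any comparison. Of all genes, 0.789% were called in heart against spleen, 1.38% in heart against MLN and 0% in MLN against spleen. At an unadjusted edgeR p under 0.05 there were 5 of the 10 in heart against spleen (13.6% of all genes). There were 3 in heart against MLN (15.5%) and 1 in MLN against spleen (5.75%). Ccr7, the receptor that guides T cells to lymph nodes, was 1130, 877 and 1446 CPM in spleen, 991, 1415 and 678 CPM in MLN, and 38.3, 478 and 134 CPM in heart (log2 fold change -2.41 against spleen, edgeR adjusted p = 0.209, and -2.25 against MLN, adjusted p = 0.219). Its heart libraries lay below every lymphoid library. Ccrl2, an atypical receptor that binds chemerin, was 18.3, 14.7 and 16.9 CPM in spleen, 24.1, 15.9 and 2.80 CPM in MLN, and 133, 142 and 135 CPM in heart (log2 fold change 3.04 and 3.26, edgeR adjusted p = 0.0844 and 0.0644). Cxcr5, the receptor of B cell follicles, was 45.3, 34.9 and 86.8 CPM in spleen and 1.72, 10.1 and 0 CPM in heart (log2 fold change -3.82, edgeR adjusted p = 0.409). Ccr3, a neighbour of Ccr1, was low and variable, with means of 5.65, 3.93 and 7.88 CPM in spleen, MLN and heart.

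Of the 8 genes of lymphoid retention and recirculation, 0 were called in heart against spleen, where 0.175% of all genes were called lower. In heart against MLN, 1, not named here, was called lower, against 0.283% of all genes. The median log2 fold change of the 8 was -0.88 and -0.65, beside 0.02 and 0.12 over all genes. Tcf7 and Foxo1, transcription factors of naive and memory T cells, were not called in any comparison. Tcf7 measured 59.0, 115 and 277 CPM in spleen, 109.8, 138 and 374 CPM in MLN, and 36.4, 122 and 77.3 CPM in heart. Foxo1 measured 101, 89.2 and 216 CPM in spleen, 142, 75.0 and 198 CPM in MLN, and 65.8, 138 and 80.1 CPM in heart, and the organs overlapped for both. Of 21 genes of receptor signalling and desensitisation, 0 were called in any comparison, where at most 1.38% of all genes were called. The most abundant were Rac2, a GTPase of leukocyte movement (mean 1517, 1682 and 972 CPM in spleen, MLN and heart), Rap1b (835, 804 and 1470 CPM) and Rap1a (1127, 977 and 691 CPM).

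Of the 9 receptors, 6 lie on chromosome 9. Ccr4, Cx3cr1 and Ccr8, with coordinates given above, lie outside the row of genes that holds Cxcr6, Ccr1 and Ccr2. In that row the protein-coding genes Fyco1, Cxcr6, Xcr1, Ccr1, Ccr1l1, Ccr3 and Ccr2 follow each other. Of these, Ccr2 was the one called. Fyco1 and Xcr1 had adjusted p of 0.806 and 0.960 in heart against spleen, and Ccr1l1 was not tested. The 250 bases before the start of each receptor, from RefSeq (GRCm38.p6), were searched on both strands for GAGGAA (the core bound by PU.1), TGTGGT (RUNX), TCACAC (a T-box site), TGANTCA (AP-1) and TATAAA. Ccr6 has more than 1 start, so the 9 receptors gave 10 windows. By GENCODE, exons cover 250 of the 250 bases for Cx3cr1, 233 for Ccr2 and 122 for Cxcr3. The RUNX letters were found in 4 of 9 receptors (Ccr1, Cxcr6, Cx3cr1 and Cxcr3), against 14% of 32851 windows of the same length. The PU.1 core was found in 3 of 9 (Ccr1, Ccr6 and Cxcr3), against 23.3% of windows. The T-box site was found in 1 (Cxcr3), against 12.3%, the AP-1 site in 1 (Ccr4), against 6.75%, and the TATA box in 1 (Cxcr4), against 12.4%. Windows are shown for Cxcr6 and Ccr1, which led the order of levels in heart, and for Cxcr4 as a receptor with overlapping organs. They lie at chr9:123806227-123806476, plus strand (Cxcr6), chr9:123968693-123968942, minus strand (Ccr1) and chr1:128592300-128592549, minus strand (Cxcr4). Each is written on the strand of its gene, with matches in capitals.
Ccr1: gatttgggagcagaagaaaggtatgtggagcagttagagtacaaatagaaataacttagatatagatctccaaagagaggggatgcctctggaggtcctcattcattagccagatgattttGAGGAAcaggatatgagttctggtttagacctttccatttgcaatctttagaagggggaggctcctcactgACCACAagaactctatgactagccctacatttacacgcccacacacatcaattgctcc
Cxcr6: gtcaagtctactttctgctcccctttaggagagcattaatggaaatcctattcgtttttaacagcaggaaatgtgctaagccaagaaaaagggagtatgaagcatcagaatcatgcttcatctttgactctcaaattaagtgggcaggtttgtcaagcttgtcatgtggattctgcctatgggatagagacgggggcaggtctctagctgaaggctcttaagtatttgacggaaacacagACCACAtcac
Cxcr4: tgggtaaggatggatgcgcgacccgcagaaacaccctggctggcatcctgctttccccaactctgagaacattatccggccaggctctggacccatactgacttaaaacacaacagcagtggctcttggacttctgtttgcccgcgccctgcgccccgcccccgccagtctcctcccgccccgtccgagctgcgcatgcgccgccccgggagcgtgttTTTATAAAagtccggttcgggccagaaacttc
In Ccr1 the PU.1 core begins at position -129 from the start and the RUNX letters, on the opposite strand, at -58. In Cxcr6 the RUNX letters, also on the opposite strand, begin at -10. In Cxcr4 the TATA box was matched at -32 and -30, on opposite strands that overlap. A match describes the letters of the window and is not evidence of binding.

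The genes most like each receptor were those with the smallest root mean square difference of log2(CPM + 1), centred on its mean over the 9 libraries, among 7344 genes. For Ccr2 they were Odc1 (0.41), Ahnak (0.43) and Picalm (0.44), and for Ccr1 Rgl1 (0.53), Slc15a3 (0.60) and Mxi1 (0.61). For Cxcr6 they were Tmem176b (0.53), Anxa2 (0.60) and Icos (0.61), and for Cx3cr1 Il11ra1 (0.45), Bag3 (0.54) and Efhd2 (0.72). For Ccr8 they were Tmem70, Rrp36 and Yaf2 (0.47 each), and for Ccr6 Sc5d (0.21), Ctps2 (0.29) and Rdh14 (0.35). For Cxcr3 they were Arpc4 (0.22), Sit1 (0.27) and Fuca2 (0.29), and for Cxcr4 Nsd1 (0.21), Stub1 (0.22) and Cdc42se1 (0.23). Ccr4, under 10 CPM on average in each organ, was left out.

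**Figure D5:**
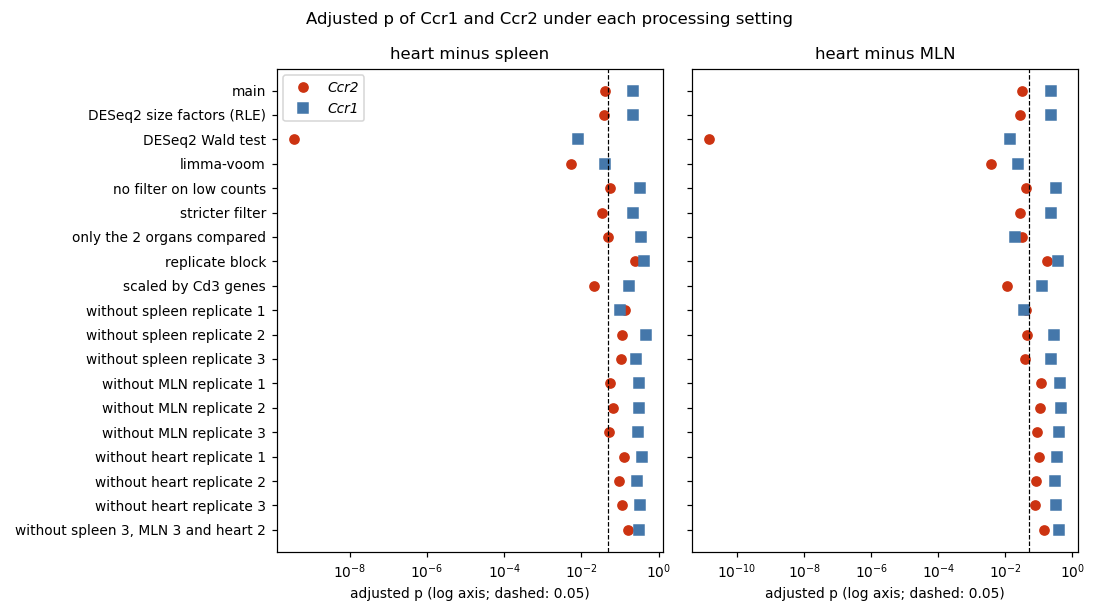
Adjusted p (log axis, dashed line at 0.05) of Ccr2 and Ccr1 under the reported fit and 18 alternative settings, for heart minus spleen and heart minus MLN. Ccr2 lies below the line in 6 of 18 alternatives against spleen and 10 of 18 against MLN.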

How the data were processed

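The deposited values are unnormalized whole-number counts, 1 column per library. Per the submitters' processing notes, the authors used CASAVA 1.8.2, HISAT2 and HTSeq 0.6.0 with mm10. Strand option, annotation release and aligner version were not given in the sources used here, so overlapping and antisense genes are uncertain. Libraries were amplified with a SMARTer kit for low input, per the labels' protocols. All 9 columns were used and 0 were left out. Genes were filtered by edgeR (minimum count 10, minimum total 15), scaled by TMM and tested in R 4.3.3 with edgeR 4.0.16 by a two-sided quasi-likelihood test with 1 term per organ and 6 residual degrees of freedom. Benjamini-Hochberg adjustment ran over the 16609 genes tested, with calls below 0.05. The SE is derived from the F statistic. Coordinates and lengths came from GENCODE vM21. Alternatives used limma 3.58.1 and DESeq2 1.42.0. No pair of libraries agreed within counting noise (chi-square), so none was merged. Separately amplified repeats of 1 sample would also exceed that noise, so this does not show that the libraries are separate samples. The median biological coefficient of variation was 102%.

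Named genes were the 9 receptors, every called gene and the 3 most abundant of each list, Ccr3 and Ccr7, and the 3 genes most like each receptor. Some genes that the rule names are not reported here. The receptors, the gene lists and the tests were chosen with earlier results of these data known. Scripts were tested on simulated data with less spread than the median of the genes here. That test does not show how they perform at the spread of these libraries.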

Additional observations from a re-analysis of the deposited data

How the results depend on the processing

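The count of receptors called in heart against spleen was 1, and was 3 with DESeq2, 2 with limma-voom, 0 with no filter on low counts, 0 with the replicate block, 0 to 0 without 1 library, and 0 without spleen 3, MLN 3 and heart 2, a setting chosen after seeing the data. In heart against MLN it was 1, and was 3 with DESeq2, 2 with limma-voom, 2 with the 2 organs alone, 0 with the replicate block, 0 to 2 without 1 library and 0 without those 3 libraries. In MLN against spleen it was 0 under each of the 18 alternatives. Of all genes, 131 were called in heart against spleen, and 1885 with DESeq2, 1141 with limma-voom, 292 with the 2 organs alone, 0 with the replicate block, 338 with Cd3 scaling, 0 to 122 without 1 library and 3 without the 3 libraries. In heart against MLN, 230 were called, and 2199 with DESeq2, 1332 with limma-voom, 548 with the 2 organs alone, 0 with the replicate block, 673 with Cd3 scaling, 0 to 249 without 1 library and 4 without the 3 libraries. In MLN against spleen, 0 were called, and 785 with DESeq2 and 3 with limma-voom. The cause was not tested. Of 486 receptor fold changes under alternatives, 432 kept direction and side of the threshold and 26 changed sign, 0 of those with an adjusted p below 0.05. Only Ccr2 was called in the reported fit, so for the other receptors keeping the side meant staying uncalled. The 20 that lost the call were all of Ccr2.

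Sign changes on the log2 scale were as follows. Scaling by the Cd3 genes moved log2 fold changes by 0.65 at the median in heart against spleen and 0.97 in heart against MLN. In MLN against spleen the median shift was -0.30. The shift differed between genes: in heart against spleen, Ccr1 went from 5.22 to 5.68 and Ccr8 from -0.44 to 0.32. The 6 sign changes under Cd3 scaling go in the direction of the median shift. With this scaling, Ccr8 was 0.32 against spleen and 0.033 against MLN, and Ccr4 was 0.62 and Cxcr4 0.43 against MLN. In MLN against spleen, Ccr1 was -0.088 and Cxcr3 -0.30. In MLN against spleen, Cxcr3 was -0.019 with DESeq2 size factors and -0.019 with DESeq2. Cxcr3 in heart against MLN was -0.0060 with limma-voom. Without the 3 libraries, Cxcr3 was -0.40 against spleen and -0.56 against MLN, Ccr4 was 0.24 against MLN, and Cx3cr1 was 0.70 in MLN against spleen. Leaving out 1 library gave Ccr4 -0.15 to 2.04 against spleen and -1.72 to 0.83 against MLN, Cxcr3 -0.60 to 0.73 and -0.62 to 0.71, and in MLN against spleen Ccr1 -0.20 to 1.94, Ccr2 -0.30 to 0.073, Cxcr3 -0.20 to 0.22 and Cx3cr1 -2.58 to 1.48. Ccr2 kept its direction in 18 of 18 alternatives in both heart comparisons.

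With the replicate block, Ccr2 was 2.73 (adjusted p = 0.245) against spleen and 2.87 (adjusted p = 0.170) against MLN. Libraries that share a number correlated at -0.21 to 0.22 in their deviations, 4 of 9 pairs above 0.1, and 1 library was closest to its own number, so the numbers were not taken to pair samples. The highest correlation between organs, 0.43, joined spleen 3 and heart 2, which differ in number. Next came spleen 3 with MLN 3 (0.221) and MLN 3 with heart 2 (0.217). What these libraries share was not tested.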
